A study of Homo sapiens with 8 samples.

Results

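Histone acetylation was examined at 10 genes of heat shock proteins and chaperones in KGN cells, an established human ovarian granulosa tumour line. The genes were HSPA1A, HSPA1B, HSPA1L, HSPA5, HSPA8, HSPH1, HSP90AA1, HSP90AB1, HSPD1 and HSPE1, out of 15812 protein-coding genes with a RefSeq start. They were chosen by name as a family after earlier results of the same peak lists were known, among them that HSPA1L held one of the strongest H4K16ac peaks of control cells. The height of that peak is therefore given as a description and supports nothing. Every peak inside a gene or within 10 kb of either end was taken, which gave 53 H3K9ac peaks with butyrate and 38 in control, and 13 H4K16ac peaks with butyrate and 14 in control.

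The butyrate cells received 1 mM butyrate for 6 h, and the control cells were cultured in the same way without it. Butyrate is a fatty acid of the gut and an inhibitor of the enzymes that take acetyl groups off histones. All cells were at passages 5 to 8 of the same line. Chromatin immunoprecipitation and sequencing used antibodies to H3 acetylated at lysine 9 (H3K9ac), to H4 acetylated at lysine 16 (H4K16ac) and a nonspecific immunoglobulin (IgG), beside input chromatin, which was not analysed here. Each of the 4 histone lists comes from 1 library, so the difference between butyrate and control has no replicate check and no p-value.

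The lists differed widely in length. They held 79356 H3K9ac peaks with butyrate and 22215 in control, and 33752 H4K16ac peaks with butyrate and 73586 in control. The fragment depth implied by the background of each list was 29.4 M (M, 1e6 fragments) for H3K9ac with butyrate and 24.3 M in control, and 23.9 M for H4K16ac with butyrate and 17.4 M in control. All H3K9ac peaks had a q of 0.05 or less, whereas 1.13% of the H4K16ac peaks with butyrate and 39.6% of those in control did. The peak names inside the lists labelled H4K16ac read k12, and H4K16ac here means the libraries so labelled. The IgG lists held 2 peaks with butyrate and 5 in control, and none lay at the 10 genes. Of 11 granulosa marker genes found, 6 had an H3K9ac promoter peak with butyrate and 3 in control, where 67.1% of all genes had one with butyrate and 58.9% in control. FOXL2, INHA and CYP11A1 had it in both lists, and CYP19A1, FSHR, AMH, NR5A1 and WT1 in neither. Of the markers of other cell types, 2 of 3 of blood (CSF1R and LCK) had it with butyrate and 0 in control, and 1 of 1 of endothelium (ERG) with butyrate and 0 in control. Of the epithelial markers 2 of 2 had it with butyrate and 1 in control, of the oocyte markers 2 of 5 with butyrate and 2 in control, and of theca and stroma 0 of 1 in either. These shares cover the 23 of 35 listed markers that were found. STAR, LUM, COL1A1, COL1A2, DCN, CD3E, SPI1, PECAM1, CDH5, CLDN5, EPCAM and KRT14 were not among them.

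Chaperones bind unfolded proteins and help them fold, and many are induced together by heat and other stress through heat shock factor 1. This factor binds the heat shock element, a repeat of inverted GAA units in the promoters of its targets. Acetylated H3K9 marks the nucleosomes that flank the starts of active genes, while the start itself is often free of nucleosomes. Acetylated H4K16 loosens the contacts between nucleosomes.

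Several of the genes share their flanks, so the 10 genes make up 7 separate loci. HSPA1L (chr6:31809619-31815283, minus strand) and HSPA1A (chr6:31815543-31817942, plus strand) point away from each other with 259 bases between their starts. HSPA1B (chr6:31827738-31830254, plus strand) follows, with 12194 bases between its start and that of HSPA1A. HSPD1 (chr2:197486584-197500274, minus strand) and HSPE1 (chr2:197500379-197503449, plus strand) also point away from each other, with 104 bases between their starts. Peaks in these shared flanks count for more than 1 gene. All positions are on GRCh38.

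The bases before the starts are shown to make the near-identity of HSPA1A and HSPA1B, the shared interval of HSPD1 and HSPE1, and the elements that lie in the gaps between the peaks visible. They are RefSeq promoter sequences of GRCh38.p14, and they read along the strand of the named gene. Capitals mark matches to the heat shock element of 2 units, GAANNTTC or TTCNNGAA, and in HSPA5 the endoplasmic reticulum (ER) stress element, a CCAAT separated by 9 bases from CCACG. The HSPD1/HSPE1 interval, along the HSPE1 strand, holds neither.
HSPA1A (chr6:31815293-31815542, plus strand): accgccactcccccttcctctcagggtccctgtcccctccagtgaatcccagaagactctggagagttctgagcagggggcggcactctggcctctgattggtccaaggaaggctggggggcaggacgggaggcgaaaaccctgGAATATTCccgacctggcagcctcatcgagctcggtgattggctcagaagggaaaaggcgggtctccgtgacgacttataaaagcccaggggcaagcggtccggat
HSPA1B (chr6:31827488-31827737, plus strand): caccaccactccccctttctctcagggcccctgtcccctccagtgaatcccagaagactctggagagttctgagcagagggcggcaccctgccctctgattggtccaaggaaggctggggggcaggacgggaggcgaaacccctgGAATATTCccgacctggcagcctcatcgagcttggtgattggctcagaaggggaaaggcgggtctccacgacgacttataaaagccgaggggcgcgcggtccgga
HSPA5 (chr9:125241344-125241593, minus strand): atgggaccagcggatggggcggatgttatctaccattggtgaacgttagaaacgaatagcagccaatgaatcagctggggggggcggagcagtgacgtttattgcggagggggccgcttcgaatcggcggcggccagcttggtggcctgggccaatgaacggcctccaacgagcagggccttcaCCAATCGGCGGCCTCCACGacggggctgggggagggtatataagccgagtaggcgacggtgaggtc
HSP90AA1 (chr14:102087045-102087294, minus strand): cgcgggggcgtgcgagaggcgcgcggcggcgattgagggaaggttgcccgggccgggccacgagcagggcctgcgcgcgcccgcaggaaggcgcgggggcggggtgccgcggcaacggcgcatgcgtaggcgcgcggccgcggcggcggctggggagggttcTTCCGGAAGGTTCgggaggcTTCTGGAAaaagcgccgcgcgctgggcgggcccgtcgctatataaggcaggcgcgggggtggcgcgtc
HSPD1/HSPE1 (chr2:197500275-197500378, plus strand): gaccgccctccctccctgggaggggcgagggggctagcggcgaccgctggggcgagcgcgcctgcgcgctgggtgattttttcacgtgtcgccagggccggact

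The HSPA1A and HSPA1B windows matched at 235 of 251 aligned columns, which is 93.6%. The HSPA1A window matched the windows of HSPA5, HSPH1 and HSP90AB1 at 51.7%, 48.7% and 52.4% of the aligned columns. Fragments that fall in sequence that HSPA1A and HSPA1B share cannot be placed with certainty, and how the authors placed them is not given in the sources used here. Values of these 2 genes are therefore uncertain where they differ from each other.

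H3K9ac was present within 1 kb of a start of every one of the 10 genes in both conditions. At a fold of at least 5 this held for 9 genes with butyrate and 10 in control, since the HSPH1 peak with butyrate fell below that fold. A promoter peak, within 1 kb of a RefSeq start or the authors' start, was found at 10 of 10 genes with butyrate, where 67.1% of all genes had one. In control it was also found at 10 of 10 genes, where 58.9% of all genes had one. None of the 10 had it in only 1 condition, against 8.44% of all genes with butyrate alone and 0.183% in control alone. Of the peaks at the 10 genes, 20 with butyrate and 17 in control lay at a start of the 10 genes. A further 15 with butyrate and 9 in control lay in their bodies, and 4 with butyrate and 5 in control at the starts of neighbouring genes. The flanks held the other 14 with butyrate and 7 in control.

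**Figure D1:**
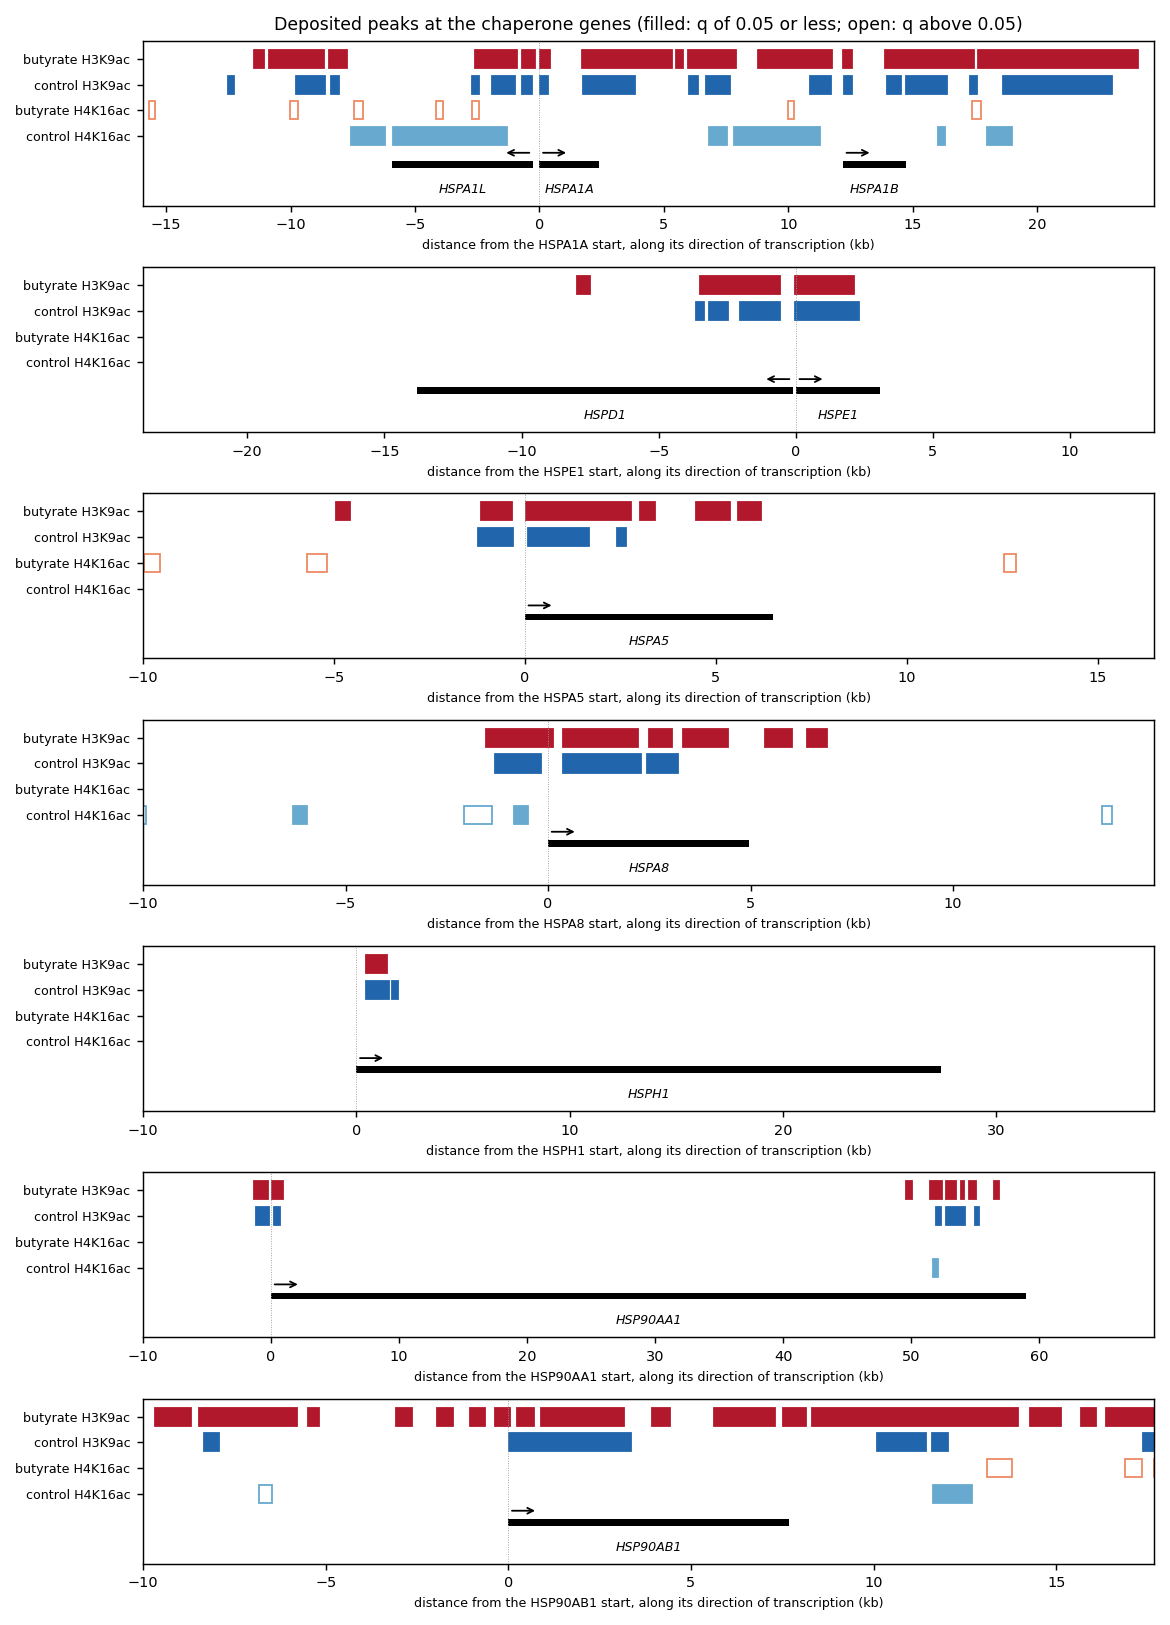
Deposited peaks at the 7 loci by distance in kb from the start of the named gene, with 1 row per list in the order butyrate H3K9ac, control H3K9ac, butyrate H4K16ac and control H4K16ac. Black bars are genes, arrows mark their starts, filled boxes have a q of 0.05 or less and open boxes a larger q. H3K9ac lies within 1 kb of a start of every gene in both lists, and all 13 H4K16ac boxes with butyrate are open.

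The length under H3K9ac peaks was longer with butyrate at most of the genes. It was at least 1.5 times longer at 6 of the 10 genes, HSPA1A, HSPA1B, HSPA1L, HSPA5, HSPA8 and HSP90AB1. This share is near the background of 57.5% of all genes and 68.1% of genes with an H3K9ac promoter peak in both lists. None of the 10 was at least 1.5 times shorter, as were 1.12% of all genes. The median ratio of butyrate to control was 1.68 over the 10 genes, 1.96 over all genes with peaks in both lists and 1.90 over genes with a promoter peak in both. The butyrate list is also the longer and the more deeply sequenced of the pair, and its part in these lengths was not tested. With the same number of top peaks taken from each list, 4 of the 10 genes were still at least 1.5 times longer (HSPA1A, HSPA1B, HSPA1L and HSP90AB1), against 28.5% of all genes. HSPA1A, HSPA1B and HSPA1L form a single cluster with overlapping windows and shared peaks, so they are not separate counts in these shares. Inside the genes alone, without flanks, 3 were at least 1.5 times longer (HSPA5, HSP90AA1 and HSP90AB1), so the calls of HSPA1A, HSPA1B, HSPA1L and HSPA8 rest on their flanks. The share of all genes without flanks was not computed, so this count has no background.

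**Figure D2:**
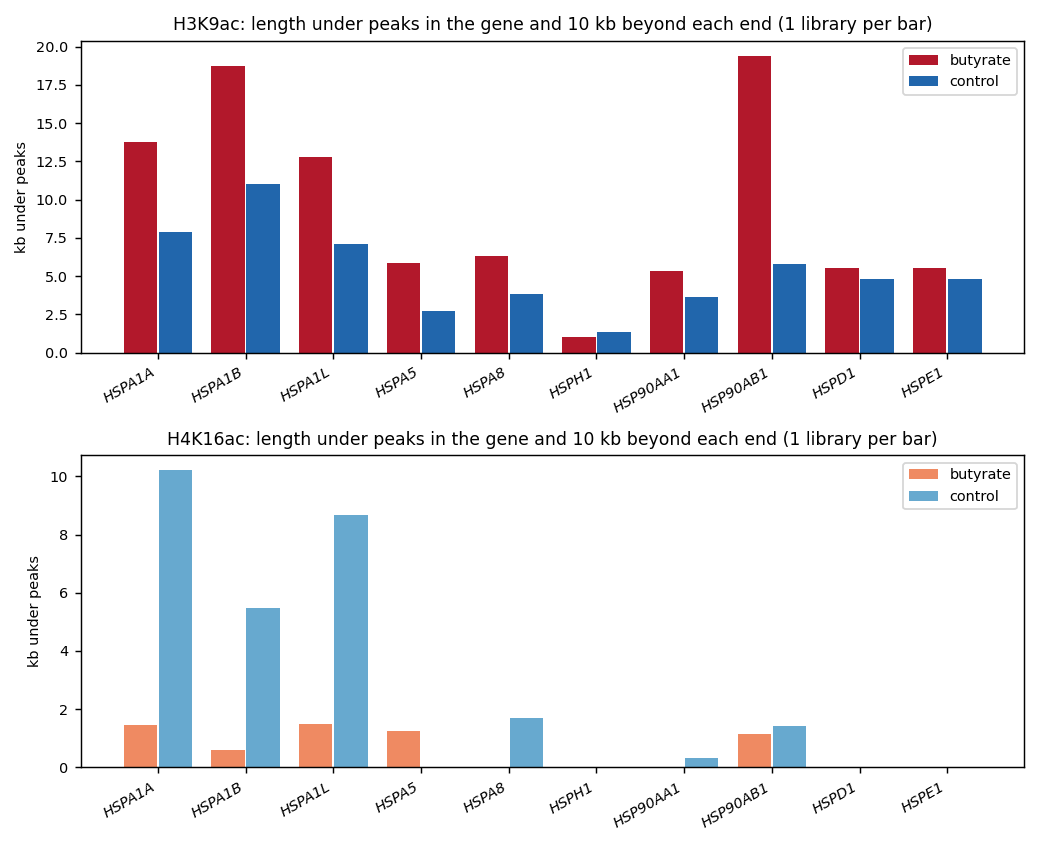
Length under peaks in kb in each gene and 10 kb beyond each end, with butyrate left of control, for H3K9ac (upper) and H4K16ac (lower), 1 library per bar. H3K9ac bars with butyrate are the longer at 9 of 10 genes, the exception being HSPH1, and H4K16ac bars with butyrate are the shorter at 6 genes and the longer at HSPA5.

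HSPA1A and HSPA1B encode the stress-inducible cytosolic HSP70 proteins, and HSPA1L a testis-enriched relative. At HSPA1A, peaks covered 13751 bp of H3K9ac with butyrate and 7894 bp in control, a ratio of 1.74. HSPA1B had 18702 bp with butyrate and 11025 bp in control, and HSPA1L 12812 bp with butyrate and 7116 bp in control, a ratio of 1.80. The cluster held 13 separate peaks with butyrate and 16 in control, so fewer and longer peaks made up the larger length with butyrate. The added length lay mainly outside the genes, since the HSPA1A gene itself held 1075 bp with butyrate and 964 bp in control, and the HSPA1B gene 1184 bp with butyrate and 868 bp in control. The longest peak with butyrate, 6424 bp, and the longest in control, 4388 bp, both lay at the start of SNHG32, a host gene of small nucleolar RNAs downstream of HSPA1B. Peaks of 2244 and 723 bp with butyrate, and of 1162 and 333 bp in control, lay at the start of LSM2. This neighbour starts 8559 bp from the HSPA1A start, and its peaks count in the HSPA1A and HSPA1L windows.

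The bodies of the 2 inducible genes carried a gap in H3K9ac. In HSPA1A the peak at the start ended 415 bp inside the gene with butyrate and 342 bp inside in control, and the next peak began at 1719 bp with butyrate and 1744 bp in control. In HSPA1B it ended at 368 bp with butyrate and 384 bp in control, and the next began at 1702 bp with butyrate and 1790 bp in control. The gap thus lay in the same place in both genes and both conditions. Both genes lack introns, and the gap falls where their sequences are nearly the same and the authors' placing of fragments is not known.

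HSPA8 encodes the constitutive cytosolic HSC70, and HSPA5 encodes BiP, the HSP70 of the ER. At HSPA8, H3K9ac peaks covered 6340 bp with butyrate and 3827 bp in control, in 6 peaks with butyrate and 3 in control. At HSPA5 they covered 5844 bp with butyrate and 2741 bp in control, also in 6 peaks with butyrate and 3 in control, and the ratio was 2.13. The added peaks lay mainly downstream of the start. Within the HSPA8 gene, 73.4% was covered with butyrate and 54.2% in control, and within HSPA5, 71.7% with butyrate and 28.2% in control. HSPA5-DT starts 313 bp upstream of the HSPA5 start on the other strand, and the peaks at the HSPA5 start belong to both genes.

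HSPH1 encodes HSP110, a nucleotide exchange factor of HSP70, and stood apart from the rest. It had a single H3K9ac peak of 1004 bp with butyrate, against 2 peaks that covered 1349 bp in control, in a window of 47416 bp. The ratio of 0.744 was the lowest of the 10. The strongest peak began 437 bp inside the gene with butyrate and 462 bp inside in control, and no peak lay upstream of its start within 10 kb.

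HSP90AB1 encodes the constitutive and HSP90AA1 the inducible cytosolic HSP90. HSP90AB1 showed the largest ratio of the 10 genes, 3.34, with 19407 bp of H3K9ac in 16 peaks with butyrate and 5817 bp in 5 peaks in control. In control, 1 peak of 3329 bp covered the 2 inner of its 3 RefSeq starts and began 26 bp downstream of the outermost. With butyrate 4 peaks lay at the starts, against that 1 in control, and 3 further along the body, against 0 in control. The other flanks held 8 peaks with butyrate and 2 in control. At the start of SLC35B2, a neighbour named here because of its peaks, a single peak measured 5628 bp with butyrate, against 2 peaks of 1340 and 438 bp in control. HSP90AA1 spans 59008 bp because of a long isoform. Its peaks covered 5319 bp with butyrate and 3610 bp in control, a ratio of 1.47, and clustered at the start of the long isoform and at the inner start of the shorter one. The outer start also lies 126 bp from that of WDR20, and its peaks belong to both genes.

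HSPD1 and HSPE1 encode the mitochondrial chaperonin HSP60 and its partner HSP10. Their windows held the same peaks, 3 with butyrate and 4 in control, which covered 5552 bp with butyrate and 4791 bp in control, a ratio of 1.16. In control, 2 small peaks of 274 and 686 bp lay in the HSPD1 body next to the 1463 bp peak at the start, and with butyrate 1 peak of 2942 bp spanned most of that stretch. HSPE1-MOB4, a readthrough gene, starts at the same base as HSPE1.

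Summits at the starts were mostly lower with butyrate once each was set against the mean of its own library, but the counting intervals of the 2 conditions overlapped at every peak. Each of the 17 control peaks within 1 kb of a start was compared with the butyrate summit of smallest q that fell inside the same peak. The whole fragments at each summit were divided by the genome mean of the library, with exact 95% Poisson intervals that cover counting error only. The butyrate summit was the lower in 14 of 17 peaks, with a median ratio of butyrate to control of 0.847 and a range from 0.525 to 1.30. Over 11632 control promoter peaks of all genes that could be matched in this way, it was the lower in 72.7%, with a median of 0.842, so a lower summit was the rule in these 2 libraries. The peaks were picked from the control list, and what this does to the ratios was not tested.

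The largest differences lay just downstream of the starts. The HSPE1 peak reached 9.53 times the mean with butyrate (26 fragments, 6.22 to 14.0), against 18.2 times in control (38 fragments, 12.9 to 24.9). The HSPA1B peak reached 11.0 times with butyrate (30 fragments, 7.42 to 15.7), against 19.6 times in control (41 fragments, 14.1 to 26.6). The HSPA5 peak reached 10.3 times with butyrate (6.82 to 14.8), against 18.2 times in control (12.9 to 24.9). These peaks lie over or just downstream of the starts of a mitochondrial, a cytosolic and an ER chaperone gene.

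The peak on the other side of the same start often differed less. On the HSPD1 side of the shared interval the summit reached 11.7 times with butyrate and 12.9 times in control. Upstream of HSPA5 it reached 10.6 times with butyrate and 11.0 times in control, and upstream of HSPA1B 13.2 times with butyrate and 14.3 times in control. HSPA8 was lower with butyrate on both sides, with 12.1 times with butyrate and 20.1 times in control before its outer start, and 9.53 times with butyrate and 15.3 times in control inside the gene.

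HSPA1A and HSPA1L, which share an interval, pointed in different directions. The HSPA1A peak reached 11.4 times with butyrate and 17.7 times in control, while the first HSPA1L peak reached 13.6 times with butyrate and 11.0 times in control. Besides this HSPA1L peak, the butyrate summit was the higher in 2 others. These were the HSP90AB1 peak, with 20.9 times with butyrate and 20.1 times in control, and the peak inside the outer HSP90AA1 start, with 8.06 times with butyrate and 6.21 times in control. At the inner HSP90AA1 start, the upstream summit reached 8.06 times with butyrate and 10.0 times in control. The HSPH1 peak reached 7.70 times with butyrate and 9.08 times in control, where the control summit lay 1120 bp inside the gene and the butyrate summit 658 bp inside. The control summit within 1 kb of the HSPH1 RefSeq start reached 6.69 times, less than the butyrate summit.

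With the strongest summit within 1 kb of any start taken per gene, whichever peak it lay in, 9 of 10 genes were lower with butyrate, the exception being HSP90AB1. With RefSeq starts alone 8 of 10 were, since HSPH1 was then also higher with butyrate. Over 9242 genes with a summit in both lists, 76.8% were lower. HSPD1 and HSPE1 were scored from the same summits in both lists, so they are not separate counts.

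**Figure D3:**
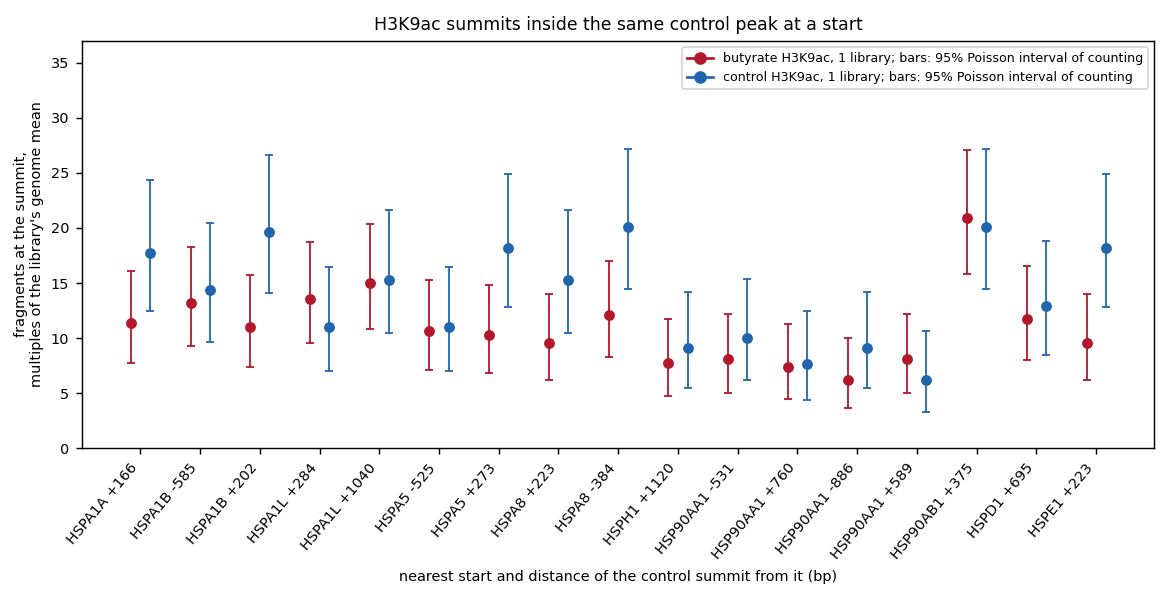
Fragments at H3K9ac summits inside the same control peak, as multiples of the genome mean of the library, with butyrate left of control and 95% Poisson intervals of counting; labels give the nearest start and the distance of the control summit from it in bp. Butyrate points lie below control points in 14 of 17 peaks, and all pairs of intervals overlap.

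The authors' own fold enrichment, a ratio of the summit to its local background, gave another order. At HSPA1B it was 3.99 with butyrate and 8.13 in control, where the local background was 6.77 fragments with butyrate and 4.16 in control. At HSPA8 the fold was 8.72 with butyrate and 6.29 in control, where the local background was 2.90 fragments with butyrate and 5.83 in control. The fold thus moved with the local background as well as with the summit.

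The first base of the gene, its outermost RefSeq start, lay outside the H3K9ac peaks at several genes that had peaks on either side of it. It was inside a peak at 5 of 10 genes with butyrate, HSPA1B, HSPA1L, HSPA8, HSP90AB1 and HSPE1, where 63.4% of genes with a promoter peak in both lists had it so. In control it was inside a peak at 1 of 10 genes, HSPE1, where 52.2% of such genes did. Peaks are cut to a threshold, and both lists differ in the p they reach, 0.00108 with butyrate and 0.000348 in control, so a wider peak and a laxer list cannot be told apart.

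Where a start lay in a gap in both lists, the gap was the narrower with butyrate at HSPA1A, HSPA5, HSPA8 and HSP90AA1 and the wider at HSPD1. At HSPA1A it measured 190 bp with butyrate and 340 bp in control, and at HSPA5 363 bp with butyrate and 390 bp in control. At HSPD1 it measured 545 bp with butyrate and 512 bp in control, and at the inner HSPA8 start 233 bp with butyrate and 537 bp in control. At the outer HSP90AA1 start it was 313 bp with butyrate and 378 bp in control. At the inner HSP90AA1 start the butyrate peak began at the start itself, and in control a gap of 359 bp remained. HSPA1B was alike, with a butyrate peak from the first base and a control gap of 502 bp.

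**Figure D4:**
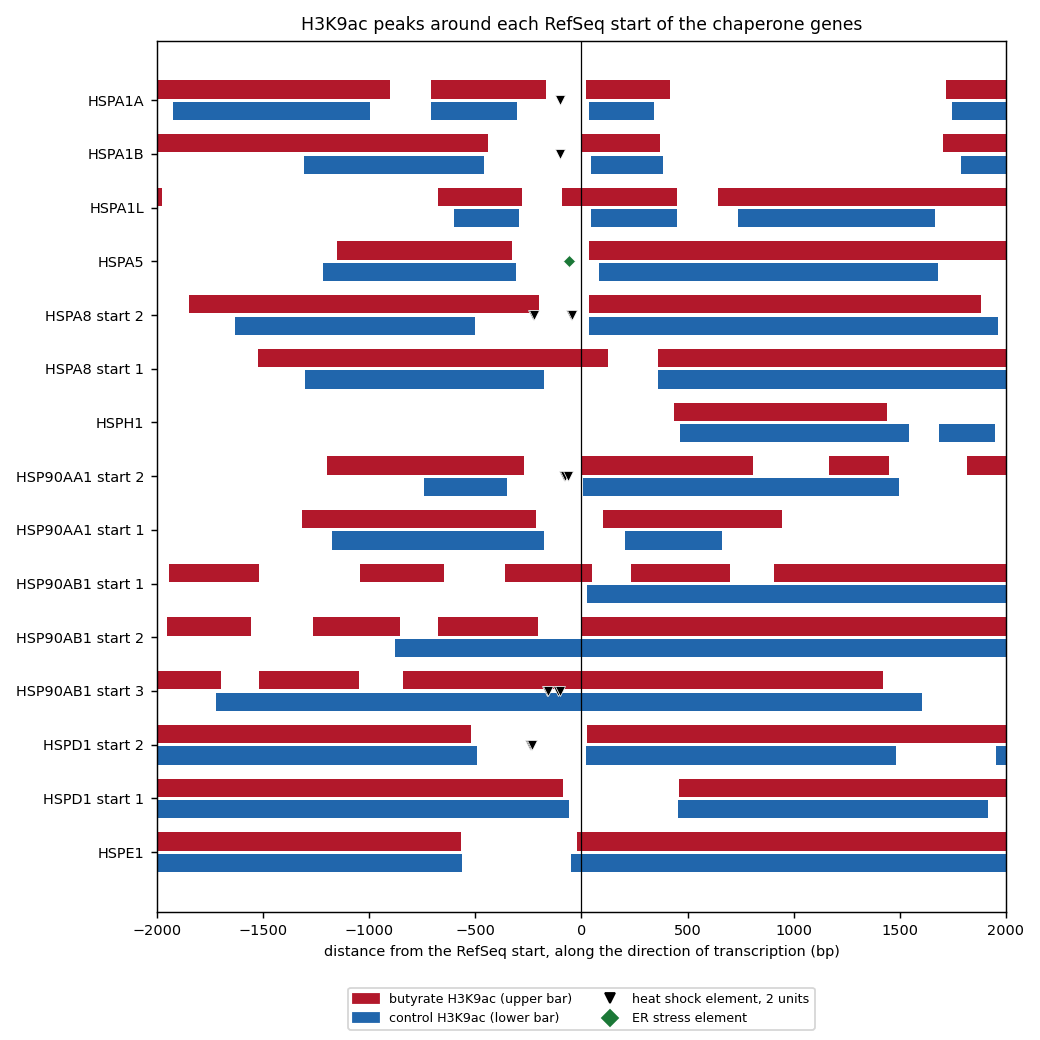
H3K9ac peaks within 2 kb of each RefSeq start, in bp along the direction of transcription, with butyrate (upper bar of each pair) over control (lower bar), and start 1 the outermost of a gene. Triangles mark heat shock elements of 2 units and the diamond the ER stress element in the bases before a start; most fall in the gap between the bars, and those of HSP90AB1 start 3 lie under both bars.

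The heat shock element of 2 units, GAANNTTC or TTCNNGAA on either strand, was common before these starts. It was searched in the 250 bases before 14 RefSeq starts, without the outer start of HSPA8. It lay before 7 of 14, in 7 genes, HSPA1A, HSPA1B, HSPA1L, HSPA8, HSP90AA1, HSP90AB1 and HSPD1, and in 10.0% of 22132 such windows of all genes. The form of 3 units, in which the 2 forms overlap by a unit in either order, lay before 4 of 14 starts, those of HSPA8, HSP90AA1, HSP90AB1 and HSPD1, and in 0.361% of all windows. The ER stress element lay before 1 start, that of HSPA5, from base -66 to -48, and in 0.0994% of all windows. TATAAA lay before the starts of HSPA1A, HSPA1B and HSPA1L (8.996% of all windows), and CCAAT before 6 of the 14 (32.7%). The TATAAA and CCAAT matches of HSPA1L are the same bases as those of HSPA1A, in the interval between the 2 genes, so they are not separate sites. Such a match is a run of letters and not a measured binding site.

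Most of these elements lay outside the H3K9ac peaks. Of 16 distinct matches of 2 units, some of which overlap each other, 6 lay inside an H3K9ac peak with butyrate and 4 in control. The share of such matches inside peaks was not computed over all genes. These counts therefore have no background and are not read as particular to chaperones. The 4 of HSP90AB1 were inside peaks in both lists, and 2 of HSPA8 only with butyrate. The element printed for HSPA1A, from -106 to -99, is the same as that of HSPA1L, since both fall in the interval between the genes, and it was in the gap in both lists. The HSPA1B element, from -105 to -98, and the HSP90AA1 elements, from -88 to -61, were also in the gap in both, as was the ER stress element of HSPA5. None lay in an H4K16ac peak of either list.

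Most control H3K9ac peaks at the genes were shared with butyrate. Of the 38 control H3K9ac peaks at the 10 genes, 36 overlapped a butyrate peak, 94.7% (exact 95% interval 82.3% to 99.4%), and 92.4% of the whole control list did. Of the 53 butyrate peaks, 31 overlapped a control peak, 58.5% (44.1% to 71.9%), and 23.0% of the whole butyrate list did. All 10 genes have H3K9ac within 1 kb of a start in both lists, so the distance from the whole list only describes these windows. These intervals count peaks of 1 library and say nothing of other cultures.

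H4K16ac showed fewer and weaker peaks, and the butyrate list held none near a start. With butyrate 0 of 10 genes had an H4K16ac promoter peak, and 5.10% of all genes had one. In control 4 of 10 had one, HSPA1B, HSPA1L, HSPA8 and HSP90AA1, and 21.2% of all genes had one. All 4 were in control alone, as at 18.7% of all genes, and 0 were with butyrate alone, as at 2.62% of all genes. The 10 genes all have an H3K9ac promoter peak in both lists. Such genes had a median of 1635 bp under control H4K16ac peaks, against 610.5 bp over all genes. The HSPA1L call rests on the authors' start, since its peak ended 1032 bp from the RefSeq start.

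Over the wider window the difference was smaller. With butyrate 5 of 10 genes had an H4K16ac peak in the gene or within 10 kb, and 51.1% of all genes did. In control 6 of 10 did, and 62.6% of all genes did. The length under peaks was at least 1.5 times shorter with butyrate at 5 of 10 genes (HSPA1A, HSPA1B, HSPA1L, HSPA8 and HSP90AA1), and at 49.7% of all genes. It was at least 1.5 times longer at 1, HSPA5, and at 10.6% of all genes. These shares were near the background.

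The number of peaks that reached a q of 0.05 differed more than the number of all peaks. With butyrate 0 of 13 peaks, and so 0 of 10 genes, reached a q of 0.05, and 1.81% of all genes had such a peak. In control 10 of 14 peaks at 6 genes did, and 49.3% of all genes had such a peak. Of these 10 control peaks, 6 lay in the HSPA1 cluster. The strongest −log10 q at the genes was 0.926 with butyrate and 7.63 in control, where the whole lists reached 3.46 with butyrate and 7.73 in control. The control value is that of the HSPA1L peak, which was known when the genes were chosen, and it supports nothing. Since so few peaks of the butyrate H4K16ac list reach this limit anywhere, the counts at these genes cannot be told apart from a weaker library.

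**Figure D5:**
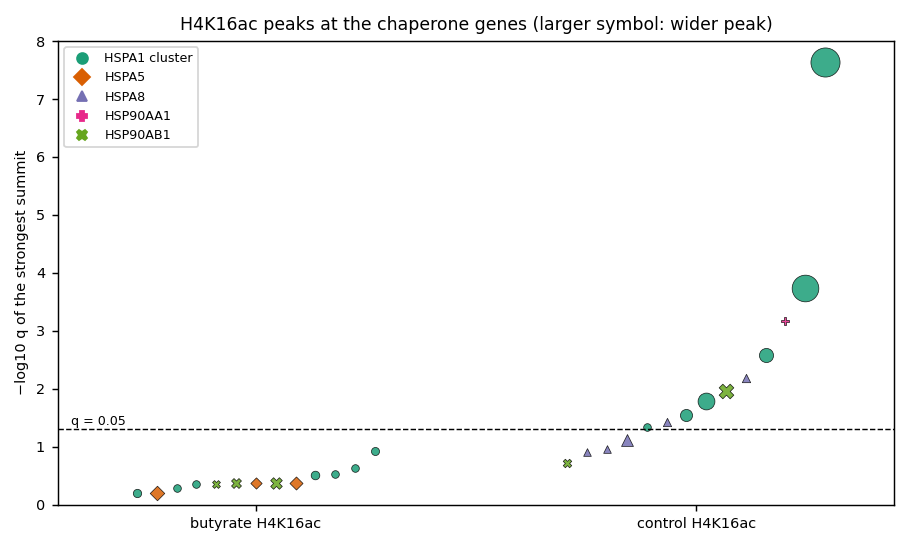
The −log10 q of the strongest summit of each H4K16ac peak at the genes, with butyrate left and control right, where the symbol shows the locus and larger symbols wider peaks. All 13 butyrate peaks lie under the dashed line of q = 0.05, and 10 of 14 control peaks lie above it, led by the peak over HSPA1L at 7.63.

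The HSPA1 cluster held the broadest H4K16ac in control. A peak of 4604 bp, at chr6:31809648-31814251, covered 81.3% of the HSPA1L gene, with 25 fragments at its summit, 15.4 times the genome mean, and ranked 2 of 73586 peaks by q. With butyrate 2 peaks of 273 and 282 bp lay inside the same stretch, with 11 and 15 fragments at their summits, and covered 9.80% of the gene. Their −log10 q was 0.361 and 0.641. A second control peak of 3490 bp, at chr6:31823342-31826831, ended 907 bp before the HSPA1B start and had a −log10 q of 3.74. With butyrate 1 peak of 236 bp lay inside it, with a −log10 q of 0.533.

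Over the windows of the cluster, HSPA1A had 1438 bp of H4K16ac with butyrate and 10208 bp in control, HSPA1B 578 bp with butyrate and 5467 bp in control, and HSPA1L 1475 bp with butyrate and 8660 bp in control. These windows overlap and count the same peaks in part. A control peak of 1391 bp at the LSM2 start is among those counted for HSPA1A and HSPA1L. No H4K16ac peak covered any base of the HSPA1A or HSPA1B gene itself in either list.

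The other loci had small H4K16ac peaks or none. HSP90AA1 had none with butyrate and 1 of 334 bp in control, from base -967 to base -634 of its inner start, with 12 fragments and a −log10 q of 3.16. HSPA8 had none with butyrate and 5 in control, of which the peak from base -837 to base -493 of its outer start had a −log10 q of 2.18. HSP90AB1 had 3 with butyrate, all with a −log10 q of 0.384 or less, and 2 in control, the stronger at the SLC35B2 start with 1.97. HSPA5 had 3 with butyrate, at most 0.384, and none in control. HSPH1, HSPD1 and HSPE1 had none in either list.

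H4K16ac peaks at the genes often shared bases with H3K9ac peaks of the same condition. With butyrate 7 of 13 did, 53.8% (25.1% to 80.8%), and 11.9% of the whole list did. In control 8 of 14 did, 57.1% (28.9% to 82.3%), and 5.60% of the whole list did. The windows surround genes that all have H3K9ac within 1 kb of a start, so the distance from the whole list is given as a description. Between the conditions, 4 of 13 butyrate peaks overlapped a control peak, 30.8% (9.09% to 61.4%), against 13.4% of the whole list. Of the control peaks, 3 of 14 overlapped a butyrate peak, 21.4% (4.66% to 50.8%), against 6.15% of the whole list. All peaks that overlapped between the conditions lay in the HSPA1 cluster. Among them was the control HSPA1L peak, which was known when the genes were chosen. The other loci had no such overlap, so these shares describe that cluster and not the family. The intervals treat its neighbouring peaks as separate.

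A list of 66 other chaperone genes, of which 57 were found, was examined in the same way. HSPA14, HSPB2, CRYAB, CCT6A, FKBP4, STUB1, ST13, PDIA3 and HSF1 were not among those found. Of the 57, 54 had an H3K9ac promoter peak with butyrate, 94.7% against 67.1% of all genes, and 52 had it in control, 91.2% against 58.9% of all genes. The length under H3K9ac peaks was at least 1.5 times longer with butyrate at 38, 66.7% against 57.5% of all genes, and 0 were shorter. The 2 that had the promoter peak with butyrate alone were DNAJB5, an HSP40 cochaperone, with a −log10 q of 17.0, and HSPBP1, a nucleotide exchange factor of HSP70, with 6.57. The 3 with none in either list were HSPB3 and CRYAA, small heat shock proteins, and HSF4, a heat shock factor of the lens.

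For H4K16ac, 2 of the 57 had a promoter peak with butyrate and 23 in control, and 22 had it in control alone, 38.6% against 18.7% of all genes. The length under H4K16ac peaks was at least 1.5 times shorter with butyrate at 38 of the 57, 66.7% against 49.7% of all genes. It was at least 1.5 times longer at 8, 14.0% against 10.6% of all genes. Of the 57, 52 had an H3K9ac promoter peak in both lists. Genes of that kind held more H4K16ac in control, a median of 1635 bp under peaks against 610.5 bp over all genes. Fewer H4K16ac peaks with butyrate were found at 6819 of 9280 such genes and at 8028 of all 15812. Shares over such genes are not given here, so the distance from all genes is not read as particular to chaperones. By −log10 q, the promoter peaks in control alone were led by CANX, which encodes the ER lectin chaperone calnexin (5.12). TRAP1, the mitochondrial HSP90 (3.71), CCT5 (3.05) and CCT8 (2.57), subunits of the cytosolic chaperonin, and HSPA4L, an HSP110 relative (2.78), followed. PDIA4, a disulfide isomerase of the ER, had the peak in both lists, with a −log10 q of 1.03 with butyrate and 0.588 in control. HSF4 had it with butyrate alone, at 0.384. By group, the H4K16ac promoter peak was in control alone at 6 of 10 cochaperones, 4 of 7 chaperonin subunits, 4 of 14 HSP40 genes, 3 of 8 HSP70 and HSP110 genes, 3 of 7 ER genes, 2 of 2 HSP90 genes, 0 of 7 small heat shock proteins and 0 of 2 heat shock factors.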

How the data were processed

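CASAVA 1.7 and MACS2 2.1.0 are the tools named in the submitters' processing notes. The aligner and any duplicate filter were not given in the sources used here. The notes name hg19, but the positions in the lists match RefSeq starts of GRCh38.p14 and are read as GRCh38. Each of 6 lists (4 histone, 2 IgG) is 1 library's narrow peak call, per the file headers. The deposited fold is a ratio of the summit pileup to the local background, and the p-value and q-value are deposited as −log10 values. The score the authors deposited equals −log10 q times 10 for H3K9ac and IgG, and −log10 p times 10 for H4K16ac. All are the authors' values and only describe, rank or filter peaks.

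Rows that share bases were merged to 1 peak, with starts read as counted from 0. Summit fragments and the local background were recovered as whole fragments from the deposited fold and p, and a script for this was checked on simulated data. The butyrate H4K16ac values needed a scale of 0.897. The genome mean is the smallest recurring background of a list. The implied depth uses the MACS2 default effective genome size of 2.7 Gb. Peaks overlap when they share at least 1 bp. Intervals are exact at 95% and cover counting error only. Fragments are not known to be separate molecules.

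The background is 15812 protein-coding genes with a RefSeq start on chromosomes 1 to 22 and X. All 10 genes are named. Of the other chaperones, up to 5 per mark and direction with the highest −log10 q at the promoter are named, and neighbours within 10 kb of a start. The genes and lists were chosen with earlier results of these data known. Alternatives were limits on q and fold, equal list lengths, other flanks, promoter widths and start tables, another overlap and unmerged rows. The comparison of summits inside the same control peak, and of summits at RefSeq starts alone, was added after seeing the data. Python 3.11.15 with numpy 2.4.6, pandas 2.3.3 and scipy 1.17.1 was used, and matplotlib 3.10.9 for figures.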

Additional observations from a re-analysis of the deposited data

How the results depend on the processing

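The counts of peaks and of genes were recomputed under other settings, and 43 of 62 values stayed within 1.5 times or within their interval. Some of these could not move. All H3K9ac peaks already met the q limit, and a cut to equal length leaves the shorter list of a mark whole. The tally is therefore no measure of how firm the results are. With a fold of at least 5, the genes held 21 H3K9ac peaks with butyrate and 19 in control, 1 gene (HSPH1) was at least 1.5 times shorter with butyrate and had no promoter peak there, and 0 H4K16ac peaks with butyrate and 1 in control were left, at the promoter of 1 gene, HSPA1L. When both lists of a mark were cut to equal length, the butyrate H3K9ac count was 30. Inside the genes alone there were 31 H3K9ac peaks with butyrate and 22 in control, 2 H4K16ac peaks with butyrate and 2 in control, and 3 genes (HSPA5, HSP90AA1 and HSP90AB1) at least 1.5 times longer under H3K9ac with butyrate. For that setting the share of all genes was not computed. With a flank of 5 kb, 6 H4K16ac peaks with butyrate were left. Unmerged, there were 134 H3K9ac summits with butyrate and 82 in control, and 28 H4K16ac summits in control. At a q of 0.05 or less, 0 H4K16ac peaks with butyrate were left, so 0% of the control peaks overlapped one, and the share of butyrate H4K16ac peaks on H3K9ac could not be computed. A promoter of 2.5 kb gave 3 genes an H4K16ac promoter peak with butyrate, HSPA1A, HSPA1B and HSPA1L. With RefSeq starts alone 8 genes had a lower strongest summit with butyrate, a setting added after seeing the data, and 3 of the 4 control H4K16ac promoter peaks were left. The cause of these shifts was not tested beyond the smaller lists or windows themselves. No paired analysis was possible because each condition and antibody has 1 library and no test was made, and no replicate could be left out. The depth of 1 library limits every value.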
